A study of Mus musculus with 3 samples.

Results

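The suppressor of cytokine signalling (SOCS) family has 8 genes in the mouse, Cish and Socs1 to Socs7, and all 8 were found by symbol among the 44788 gene symbols of the deposited count table. The reads came from 3 libraries (replicates 1, 2 and 3) of splenic T lymphocytes of female BALB/c mice, 6 to 8 weeks old, exposed in culture to LZ-8 over 15 h. This is a protein of the mushroom Ganoderma lucidum that stimulates T cells. The cells had been taken from the spleen with beads against CD90.2, so CD4 and CD8 T cells were sequenced together. All 3 libraries carry the same treatment, and untreated cells were not analysed here, so the values below are levels in LZ-8-treated T cells and not responses to LZ-8. The labels give no dose, and nothing ties a replicate to its own mouse or culture. The p-values below therefore cover only these samples, whose spread may be technical. They set the spread of a gene against counting error, or test whether a ratio of genes keeps its direction across the samples.

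SOCS proteins are feedback inhibitors of cytokine receptors. A cytokine brings receptor-bound JAK kinases together, these phosphorylate STAT factors, and the STATs enter the nucleus and switch on target genes, among them several SOCS genes. Each SOCS protein holds an SH2 domain that binds phosphorylated tyrosines and a C-terminal SOCS box that recruits elongins B and C and cullin-5, which together tag bound proteins with ubiquitin. In T cells, Cish (the protein CIS) is a classical target of STAT5 downstream of interleukin-2, Socs1 restrains interferon-gamma and interleukin-2 signalling, and Socs3 restrains receptors that use the gp130 chain.

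The libraries held 12669690 to 19041670 counts, and a gene with 0 reads could still lie as high as 0.158 to 0.237 CPM, a floor of 3 counts per library (CPM is counts per 1000000 counts of the library). Among the T cell identity genes 12 of 12 were above 1 CPM, with a sum of 3515 to 3703 CPM over the libraries. The summed level of the B cell markers was 16.7 to 18.5 CPM, that of the monocyte and macrophage markers 3.63 to 4.55 CPM, that of the neutrophil markers 0.158 to 0.340 CPM and that of the erythroid and platelet markers 1.56 to 1.84 CPM. Csf1r, C1qa, C1qc, Fcgr1, Elane, Retnlg, Alas2, Pf4, Ppbp, Klra8 and Kdr had no read in any library. The natural killer cell markers summed to 53.3 to 61.8 CPM, mostly Nkg7 (37.5 ± 2.90 CPM, SD, n = 3) and Eomes (17.5 ± 1.59 CPM), which activated CD8 T cells also use, and the stromal and endothelial markers to 60.2 to 64.4 CPM, nearly all of it Pecam1 (61.8 ± 2.18 CPM). In bulk RNA a smaller number of expressing cells and less RNA per cell cannot be told apart, so no SOCS level below can be assigned to CD4 or CD8 cells.

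All 8 SOCS genes were present, and Cish stood far above the rest. Together they had 12962, 8887 and 10431 reads in replicates 1, 2 and 3, or 697 ± 14.6 CPM (SD, n = 3). Cish alone took 64.1%, 66.5% and 66.4% of these reads in replicates 1, 2 and 3, with exact Clopper-Pearson 95% intervals of 63.3 to 64.9%, 65.5 to 67.5% and 65.5 to 67.3%. These intervals, like all others given here, cover counting error only. The other 7 genes summed to 244, 235 and 238 CPM in the same order of replicates, so the higher family total of replicates 2 and 3 was in Cish reads.

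Cish codes for CIS, which binds phosphorylated tyrosines of the interleukin-2 receptor beta chain and other receptors that signal through STAT5. Its gene lies on the plus strand of chromosome 9 from 107296026 to 107302784 (GRCm38, the assembly that mm10 denotes; GENCODE vM21), with 5 annotated transcripts. It had 8311 reads in replicate 1, 5909 in replicate 2 and 6925 in replicate 3. These are 436 CPM (95% counting interval 427 to 446), 466 CPM (455 to 478) and 471 CPM (460 to 482), so replicate 1 lay below the other two, and its interval did not reach theirs. By reads per gene Cish was in place 288 of the 13500 genes tested. Per kilobase of annotated exon it reached 71.3 ± 2.90 CPM (SD, n = 3), above 93.5% of the 12812 tested genes that had an exon length. A pair of annotated genes lie antisense within its exons: Gm17040 had 2, 1 and 2 reads, and Gm17041 was not among the symbols of the table. Whether the counting used strand is not given in the sources used here, so reads from that overlap of 261 and 479 exon bases cannot be assigned with certainty.

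Windows from 250 bases before to 50 bases after the RefSeq start of a gene (GRCm38.p6) were at hand for 4 of the 8 genes: Cish, Socs1, Socs3 and Socs4. The GENCODE annotation begins both Cish (at base 107296026) and Socs3 (at base 117970047, minus strand) further upstream, so positions below are relative to the RefSeq start. They were searched for TTCNNNGAA, the spacing that STAT5 and most other STAT dimers prefer, and for TTCNNNNGAA, the wider spacing preferred by STAT6; both patterns read the same on the 2 strands. Cish and Socs3 are shown because their windows hold the first pattern, written in capitals.
Cish, chr9:107296409-107296708, plus strand: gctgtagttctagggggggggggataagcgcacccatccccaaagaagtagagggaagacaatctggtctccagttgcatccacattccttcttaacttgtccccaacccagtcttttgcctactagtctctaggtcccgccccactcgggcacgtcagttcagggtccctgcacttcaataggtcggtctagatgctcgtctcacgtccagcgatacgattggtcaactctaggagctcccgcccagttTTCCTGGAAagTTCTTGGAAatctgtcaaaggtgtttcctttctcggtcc
Socs3, chr11:117969317-117969616, minus strand: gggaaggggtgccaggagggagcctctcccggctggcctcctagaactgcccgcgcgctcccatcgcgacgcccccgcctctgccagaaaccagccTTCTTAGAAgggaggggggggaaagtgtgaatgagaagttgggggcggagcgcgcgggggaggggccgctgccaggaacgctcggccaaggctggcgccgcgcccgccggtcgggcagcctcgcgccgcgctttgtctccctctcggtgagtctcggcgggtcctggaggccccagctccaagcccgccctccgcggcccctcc
The Cish window holds TTCCTGGAA at bases 1 to 9 after the start and TTCTTGGAA at bases 12 to 20, and the Socs3 window holds TTCTTAGAA at bases -154 to -146. The Socs1 and Socs4 windows hold neither pattern, which says only that these letters are not in those 300 bases. Over all 32851 windows in the RefSeq table, 8.30% hold TTCNNNGAA at least once and 0.457% at least 2 times, while 6.95% hold TTCNNNNGAA, which none of the 4 SOCS windows contain. No binding was measured here, and a match is a description of the sequence.

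Socs2 is the closest relative of Cish in the family and is best known as a brake on growth hormone signalling. It lies on the minus strand of chromosome 10 (95385362 to 95417180, GRCm38) and had 476, 330 and 383 reads, or 25.0, 26.0 and 26.0 CPM in replicates 1, 2 and 3. The libraries overlapped within their counting intervals. Per kilobase of all annotated exons Socs2 stood at 2.70 ± 0.0629 CPM (SD, n = 3) and was 0.0378 times Cish (geometric mean of the 3 libraries). Its annotated exons add up to 9531 bases over 14 transcripts, while its longest principal transcript (as marked by APPRIS in GENCODE) has 2222 bases. With that length it reached 11.6 ± 0.270 CPM per kilobase, level with Socs1 and Socs3.

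Socs1 and Socs3 are the members with a kinase inhibitory region, a short stretch with which they block JAK kinases directly. Socs1 (chromosome 16, 10782240 to 10785536, minus strand, GRCm38) had 657, 422 and 501 reads in replicates 1, 2 and 3. It stood at 34.5, 33.3 and 34.0 CPM, the narrowest relative spread of the family, with a coefficient of variation of 1.78% where counting alone gives 4.42%. Socs3 (chromosome 11, 117966079 to 117970047, minus strand) had 626, 388 and 437 reads, or 32.9, 30.6 and 29.7 CPM. Replicate 1 was highest, and all 3 counting intervals overlapped. Per kilobase of exon Socs1 was at 11.7 ± 0.207 CPM and Socs3 at 10.7 ± 0.566 CPM (SD, n = 3), a ratio of Socs1 to Socs3 of 1.04, 1.08 and 1.14 in the 3 libraries. The ratio turned to 0.960 when the length of the principal transcript was used, so these data do not give the order of the 2 genes. Shared sequence was counted as the percentage of a gene's 31-base stretches that also occur in annotated transcripts of other genes, since the handling of multi-mapping reads is unknown. It was 10.4% for Cish (the antisense genes above included), 7.38% for Socs6, 6.55% for Socs2, 0.526% for Socs4, 0.0277% for Socs7 and 0% for Socs1, Socs3 and Socs5, so the first 3 levels are the least certain in this respect.

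Socs4 and Socs5 are related proteins with long N-terminal parts, described as regulators of the epidermal growth factor receptor. Socs4 (chromosome 14, 47276931 to 47296102, plus strand, GRCm38) had 662, 480 and 503 reads, or 34.8, 37.9 and 34.2 CPM in replicates 1, 2 and 3. Replicate 2 was highest, and all 3 counting intervals overlapped. Socs5 (chromosome 17, 87107679 to 87137839, plus strand) had 829, 487 and 726 reads, or 43.5, 38.4 and 49.3 CPM. Replicate 2 was lowest and replicate 3 highest, and the counting intervals of those libraries did not meet (35.1 to 42.0 CPM in replicate 2, 45.8 to 53.1 CPM in replicate 3). Per kilobase of exon Socs4 stood at 5.18 ± 0.290 CPM and Socs5 at 6.82 ± 0.850 CPM (SD, n = 3).

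Socs6 and Socs7 form the remaining pair, described as binding insulin receptor substrates. Socs6 (chromosome 18, 88665224 to 88927481, minus strand, GRCm38) had the fewest reads of the family, 304, 204 and 260, or 16.0, 16.1 and 17.7 CPM in replicates 1, 2 and 3, with overlapping intervals. Socs7 (chromosome 11, 97362551 to 97398542, plus strand) had 1097, 667 and 696 reads, or 57.6, 52.6 and 47.3 CPM. Replicate 1 was highest and replicate 3 lowest, with intervals of 54.3 to 61.1 CPM and 43.8 to 50.9 CPM that did not meet. Per kilobase of exon Socs7 was at 7.23 ± 0.710 CPM and Socs6 at 1.46 ± 0.0834 CPM (SD, n = 3). RefSeq lists Socs7 also as an older name of Socs4, and Socs4 as one of Socs6; the rows were taken as the current symbols, since the table has 1 row for each.

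**Figure D1:**
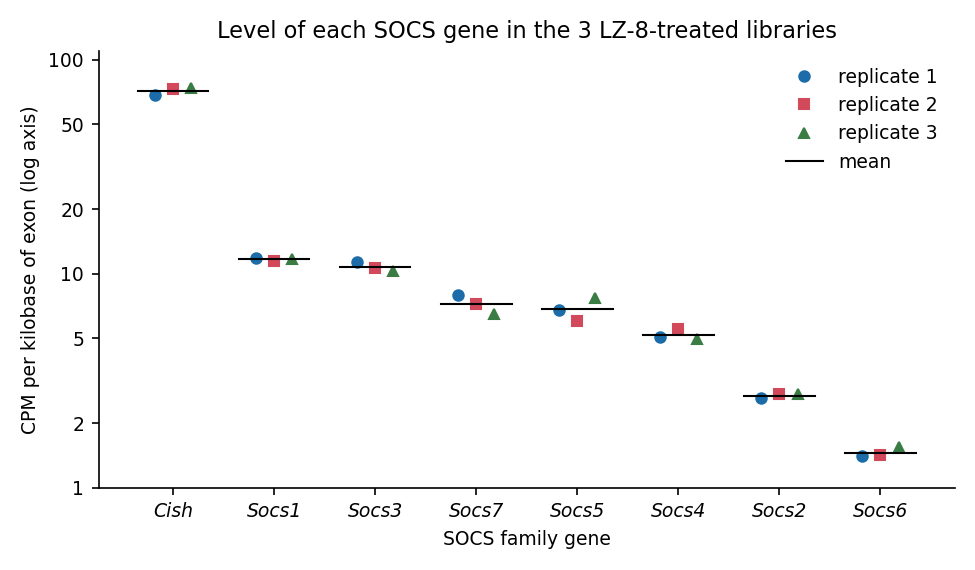
Level of each SOCS gene in CPM per kilobase of annotated exon (log axis), with 1 point for each of the 3 LZ-8-treated libraries and a line at their mean. Cish, at a mean of 71.3, lies apart from the other 7 genes, whose means run from 11.7 (Socs1) to 1.46 (Socs6).

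The order of levels per kilobase of annotated exon was Cish, Socs1, Socs3, Socs7, Socs5, Socs4, Socs2 and Socs6. Cish was 6.11-fold above Socs1 by their means (log2 ratio 2.61 ± 0.08, SD, n = 3), and higher in 3 of 3 libraries. Socs1 and Socs3 differed 1.09-fold, without overlap of their library values. Socs3 was 1.49-fold above Socs7, again without overlap. Socs7 and Socs5 were not separated: their values overlapped, and Socs7 was the higher in 2 of 3 libraries. Socs5 lay 1.32-fold above Socs4, Socs4 1.92-fold above Socs2 and Socs2 1.85-fold above Socs6, each in 3 of 3 libraries and without overlap. A two-sided exact sign-flip permutation test of the log2 ratio gave p = 0.25 for 6 of the 7 neighbouring pairs and p = 0.75 for Socs7 and Socs5; with 3 libraries 0.25 is the smallest p it can give, so no pair could pass a threshold of 0.05.

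The place of Cish and Socs6 at the ends of the order was the same under the 4 length scalings tried, while the places between moved. With the principal transcript, a length scaling added after the values were seen, Cish stood at 161 ± 6.53 CPM per kilobase (SD, n = 3) and above 97.5% of the 10647 tested genes that had such a transcript. The next member was then Socs3 at 12.2 ± 0.641, followed by Socs1 at 11.7 ± 0.207, Socs2 at 11.6 ± 0.270, Socs5 at 9.42 ± 1.17, Socs7 at 7.49 ± 0.735, Socs4 at 5.18 ± 0.290 and Socs6 at 2.75 ± 0.157 CPM per kilobase. Cish exceeded the highest other member 13.2-fold on that scale, 11.1-fold per kilobase of coding sequence and 6.11-fold per kilobase of all annotated exons. The annotated exons of Cish add up to 6419 bases, against 2850 bases in its principal transcript and 771 coding bases, so the first scale gives the lowest value for this gene. The share of Cish in the family's summed level per kilobase was 60.9 ± 1.53% with all exons and 72.7 ± 1.12% with principal transcripts (SD, n = 3).

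**Figure D2:**
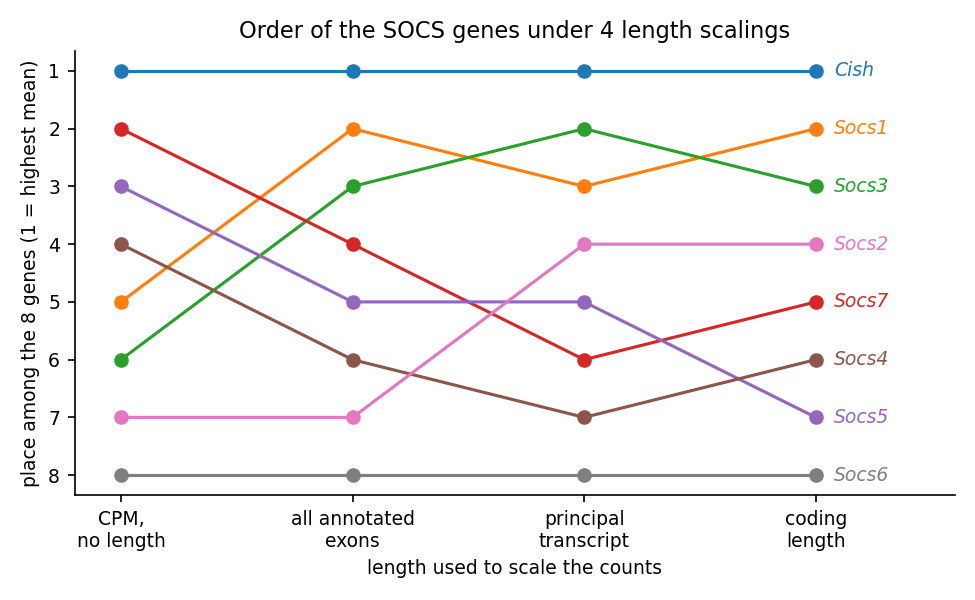
Place of each SOCS gene by mean level (1 is the highest) under 4 ways of scaling counts for length. Cish stays first and Socs6 last in all 4, whereas Socs2 moves between places 7 and 4; places from counts without length are not a comparison of transcript abundance.

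The libraries were then compared with each other, gene by gene, to see which SOCS levels differed by more than counting noise. Cish, Socs5 and Socs7 did, 3 of the 8 genes, while 13.7% of all 13500 genes tested did (likelihood-ratio test of edgeR at a dispersion of 0, Benjamini-Hochberg adjusted p under 0.05). The test compares these libraries and not conditions, and it calls abundant genes more often: 33.9% of genes with at least 100 CPM, where Cish is the only SOCS gene, 53.4% of those with at least 300 CPM, and 11.6% of genes from 10 to under 100 CPM, where the other 7 lie. Cish differed 1.08-fold between its highest and lowest library (adjusted p = 1.5e-05), Socs5 1.28-fold (adjusted p = 0.00127) and Socs7 1.22-fold (adjusted p = 0.00572). These 3 genes did not move alike. Cish was lowest in replicate 1, Socs5 was lowest in replicate 2 and Socs7 was lowest in replicate 3. Each call rested on particular libraries in the same edgeR test. Without replicate 1 Cish (adjusted p = 0.712) and Socs7 (adjusted p = 0.263) were not called, without replicate 2 Socs5 was not (adjusted p = 0.0866), and without replicate 3 Socs5 (adjusted p = 0.208) and Socs7 (adjusted p = 0.329) were not.

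The remaining 5 genes did not pass the edgeR test, with adjusted p = 0.923 for Socs1, 0.856 for Socs2, 0.502 for Socs3, 0.462 for Socs4 and 0.605 for Socs6. Their highest and lowest libraries differed 1.04-fold to 1.11-fold, and their coefficients of variation, 1.78 to 5.71%, stood beside the 4.32 to 6.33% that counting alone gives. For Cish (4.06%, against 1.20% from counting), Socs5 (12.5%, against 3.90%) and Socs7 (9.82%, against 3.56%) the spread was wider than counting alone gives. The median range between libraries was 0.15 log2 units over the 8 genes and 0.17 over all genes tested. These ranges include counting error, which depends on level, and the sets were not matched for level (median 34.8 CPM against 27.0 CPM).

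**Figure D3:**
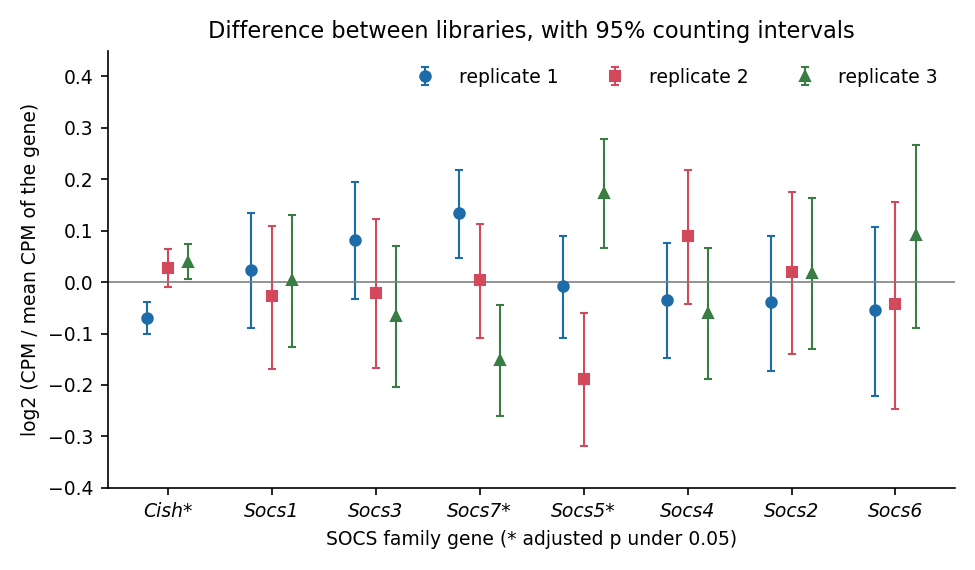
Log2 of each library's CPM over the gene's mean CPM, with exact Poisson 95% counting intervals, for the 8 SOCS genes in order of level per kilobase. An asterisk marks the genes with an edgeR adjusted p under 0.05. Cish was lowest in replicate 1. Socs7 was highest in replicate 1 and lowest in replicate 3, and Socs5 was lowest in replicate 2 and highest in replicate 3.

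The signalling steps that SOCS proteins act on were measured in the same libraries, with levels per kilobase of annotated exon. The median SOCS gene stood at 7.02 CPM per kilobase, beside 8.27 for all tested genes with a length, while the medians of the JAK kinases (53.5), the STAT factors (59.5) and the common gamma chain receptors (50.9) were higher. Without length the family median turned to lie above that of the tested genes, at 34.8 beside 27.0 CPM. Cish itself, at 71.3 CPM per kilobase, lay above these 3 list medians, and the other 7 SOCS genes lay below them. All 4 JAK kinases exceeded 100 CPM, led by Jak1 (66.2 ± 2.47 CPM per kilobase, SD, n = 3), Jak3 (58.3 ± 3.11) and Jak2 (49.0 ± 0.758). So did all 7 STAT genes, among them Stat6 (97.0 ± 1.44) and Stat5a (79.8 ± 2.53). Stat5b, named here because STAT5 acts on Cish and chosen after its value was seen, stood at 59.5 ± 1.34 CPM per kilobase.

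Of the common gamma chain receptors, through which interleukin-2 and its relatives signal, 8 of 8 were above 1 CPM and 5 above 100 CPM. The 3 chains of the interleukin-2 receptor led them, with Il2rg at 193 ± 3.32, Il2ra at 143 ± 3.36 and Il2rb at 120 ± 5.94 CPM per kilobase (SD, n = 3). Cish was 0.489, 0.504 and 0.505 times Il2ra in replicates 1, 2 and 3, with an SD of 0.03 log2 units. It was 1.24, 1.22 and 1.21 times Jak3, with an SD of 0.02. The Jak3 ratio (geometric mean 1.22) was 2.07 with principal transcript lengths and 1.47 without length. The ratio of Cish to the tyrosine phosphatase gene Ptpn1 had a like SD of 0.0272, and that of Socs2 to Cish 0.026. A narrow spread was thus not particular to Il2ra and Jak3. The SD of the ratio to Il2rg was 0.0446. Some other Cish ratios spread more widely. That to Jak1 (geometric mean 1.08) had an SD of 0.104 log2 units and turned to 0.957 without length. Against Stat5a the Cish ratio was 0.824, 0.937 and 0.925, with an SD of 0.102. It turned to 1.10 (geometric mean) with principal transcript lengths. Against Il2rb the Cish ratio was 0.569, 0.634 and 0.580, with an SD of 0.0831, and turned to 1.31 with principal transcript lengths. Against Il2ra and Il2rg Cish was lower with either length, by factors of 0.869 and 0.583 with principal transcripts.

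Other receptors that couple to JAK kinases varied widely in level. Of 19 listed, 13 were above 1 CPM, with Il27ra (67.5 ± 1.92 CPM per kilobase, SD, n = 3), Il12rb1 (28.5 ± 0.705) and Ifngr1 (20.8 ± 0.349), a receptor chain for interferon-gamma, the highest, and Lifr and Osmr without a read. The gp130 chain gene Il6st, to which SOCS3 protein binds, stood at 19.6 ± 0.909 CPM per kilobase. The growth hormone receptor gene Ghr, through which Socs2 is best known, had 3, 1 and 0 reads, under the floor of 3 counts or at it in each library. Both genes were singled out after their values were seen. Among 15 cytokines that signal through JAK kinases 10 exceeded 1 CPM and 0 exceeded 100 CPM, with Il2 (19.6 ± 1.97 CPM per kilobase), Lif (12.7 ± 0.102) and Ifng (12.0 ± 0.810) highest and Il7 and Il9 without a read.

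The listed ubiquitin ligase genes, which hold the elongins and cullin-5 but also another cullin, were all present, 9 of 9 above 1 CPM. The elongin B gene, listed as Tceb2, was highest at 127 ± 4.96 CPM per kilobase (SD, n = 3), followed by Nedd8 (65.9 ± 2.50), the small protein that activates cullins, and the ring-finger subunit Rnf7 (23.7 ± 1.29). The elongin C gene Tceb1 stood at 14.9 ± 1.59 and Cul5 at 8.14 ± 0.546 CPM per kilobase, both named after their values were seen. Of 15 other proteins with a SOCS box 13 were above 1 CPM, led by Wsb1 (22.5 ± 0.324), Spsb3 (15.6 ± 1.10) and Asb6 (13.1 ± 0.429), and Spsb4 and Rab40b had no read. Per kilobase of annotated exon Cish was above each of these 15 genes.

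JAK-STAT inhibitors outside the family were all above 1 CPM, 12 of 12. The tyrosine phosphatase genes Ptpn6 (156 ± 3.85 CPM per kilobase, SD, n = 3) and Ptprc (93.1 ± 0.606) were above Cish on this scale, and Ptpn1 (44.4 ± 1.22) was below it. The ratio of Cish to Ptpn6 (geometric mean) was 0.458 with all exons and 0.817 with principal transcripts, and it turned to 1.05 without length. The ratio to Ptprc was 0.766, 0.443 and 0.268 and that to Ptpn1 1.60, 2.75 and 1.86 on the same 3 scales. Of 12 known STAT5 target genes outside the family 12 exceeded 1 CPM and 7 exceeded 100 CPM, and the kinase gene Pim2 (199 ± 6.95), Myc (166 ± 5.48) and Il2ra were highest; the list's median was 40.5 CPM per kilobase. Of 13 genes for proteins that SOCS members bind 11 were above 1 CPM, led by the T cell kinases Lck (178 ± 3.96) and Zap70 (133 ± 7.22) and by the NF-kB subunit Rela (70.6 ± 4.40).

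Differences between the libraries also appeared in pathway genes, and they did not run one way. In the edgeR test 2 of 4 JAK kinases, 1 of 7 STAT factors, 2 of 8 common gamma chain receptors, 1 of 13 other receptors tested, 0 of 10 cytokines tested, 2 of 9 ligase partners, 1 of 13 other SOCS box genes tested, 1 of 12 other inhibitors, 5 of 12 STAT5 targets and 4 of 11 tested SOCS-bound proteins were called, most of them genes of over 100 CPM, beside 13.7% of all genes tested, 33.9% of those of at least 100 CPM and 53.4% of those of at least 300 CPM. These lists share genes, and the call of Il2ra counts in both the common gamma chain receptors and the STAT5 targets. Il2ra (794, 824 and 829 CPM in replicates 1, 2 and 3, adjusted p = 0.00124 in edgeR) and Jak3 (293, 318 and 325 CPM, adjusted p = 2.07e-06) were lowest in replicate 1, as Cish was. Called genes of other lists were lowest there too, among them Tceb2 (169, 181 and 181 CPM) and the T cell identity gene Cd5 (643, 648 and 682 CPM). Stat5a (588, 553 and 565 CPM, adjusted p = 0.00423) was highest in replicate 1, and Jak1 (491, 487 and 458 CPM, adjusted p = 0.00349) was lowest in replicate 3. Replicate 1 was also the deepest library; the part of depth in these differences was not tested.

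**Figure D4:**
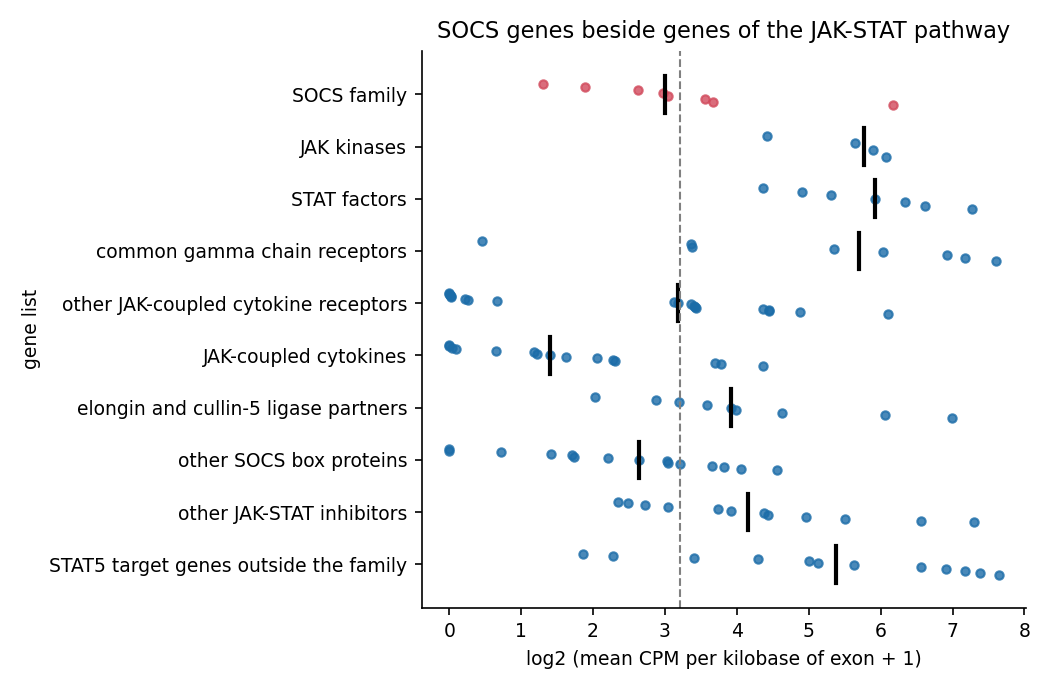
Mean level of each gene as log2 (CPM per kilobase of annotated exon + 1), with 1 row for the SOCS family (red) and 1 for each of 9 lists of pathway genes (blue); black bars are list medians and the dashed line is the median of all tested genes. Cish is the single SOCS gene above the JAK and STAT medians, and the other 7 lie at or below a value of 3.66.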

How the data were processed

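RNA was sequenced from 3 libraries with an Ion Proton kit, per the labels' protocols. The authors deposited raw read counts per gene symbol, which are whole numbers and sum differently in every library. The submitters' processing notes name the build mm10, with aligner, counter, annotation, strand and multi-mapping rules not given in the sources used here. The SOCS genes and all lists were chosen with earlier results of these data known, so no list is independent evidence.

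CPM was computed from column totals. With a single group no contrast or quasi-likelihood test could be fitted. The 13500 genes that reached 1 CPM in 2 or more libraries entered a test of the library factor in edgeR 4.0.16 (TMM factors, dispersion 0, likelihood-ratio test, p-values adjusted by Benjamini-Hochberg over all of them). On Poisson counts simulated for 13505 genes, 70 of 100 changes of 1.5-fold and 96 of 100 changes of 2-fold were found, beside 7 false calls. The simulated counts held counting noise only, as the test assumes. Changes as small as those called for the SOCS genes were not simulated, so their recovery was not tested. Lengths came from GENCODE vM21 and matched 32204 of 44788 symbols. All 171 entries of 18 gene lists (10 besides the SOCS family for the pathway, 7 for markers of cell types) were found, 1 under another symbol. Named were all SOCS genes, at most 3 genes per list with the highest level per kilobase, and genes without a read in any library; exceptions are stated, and some of these genes are not reported here. No search for genes of like pattern was made, since 3 libraries of a single group give no pattern across conditions. The shared order of libraries and the spreads of ratios given above are descriptions only. Alternatives used DESeq2 1.42.0 size factors, unscaled totals, other filters, other lengths, another pseudocount, means and each library left out. The other software was Python 3.11.15 with scipy 1.17.1, and R 4.3.3.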

Additional observations from a re-analysis of the deposited data

How the results depend on the processing

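No paired analysis was possible because there was 1 group only. The 3 SOCS genes called as differing between libraries were called under DESeq2 size factors, unscaled totals, no expression filter and a filter of 5 CPM; with a library left out the number was 1 to 2, and that of all genes 742 to 1193, against 1847 with all 3 libraries. Those tests held fewer samples. Of 56 calls of single SOCS genes under alternatives 51 were unchanged and 5 lost, all 5 with a library left out. The share of Cish in the family level was 65.7% without length, 72.2% with coding length and 72.7% with principal transcripts, against 60.9%. Of the 8 genes 3 kept their place in the order without length, 5 with coding length and 3 with principal transcripts. The median SOCS gene minus the median tested gene, -0.21 log2 units per kilobase of exon, turned to 0.24 without length. The length scalings change these by construction. Depth limits the 7 genes other than Cish to a counting error of 3.56 to 6.33% per library on average.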
